A study of Mus musculus with 8 samples.

Results

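Nuclear receptors are transcription factors that bind DNA through a shared zinc finger domain, and many of them are switched by lipids, hormones or bile acids that enter the ligand-binding domain. The genes described here are 34 nuclear receptor genes, chosen by their symbols in the table of counts, which holds 33212 genes in all. All 34 were found, and all 34 had enough counts to be among the 15291 genes tested. In the liver these receptors set the programmes of fatty acid oxidation, bile acid and cholesterol metabolism, drug clearance and gluconeogenesis, and many of them act as a pair with a retinoid X receptor. Others, such as HNF4A, hold the identity of the hepatocyte.

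The data are RNA-seq of liver from C57BL/6 mice of 2 genotypes. The Nnmt KO mice (labelled Nnmt LKO) carried floxed Nnmt alleles and Cre under the albumin promoter, a design meant to delete Nnmt in hepatocytes, and how completely it did so was not tested here. The control mice, labelled WT, are given in the study's results as Nnmt flox/flox. Mice of both genotypes were male and were kept for 8 weeks on a diet lacking methionine and choline (MCD), which brings fat, inflammation and injury to the liver. Their age at the start of the diet was not given in the sources used here. There were 4 libraries per genotype, lettered a to d in the order of their columns. The question put to these genes was whether their transcripts differed in level between the livers of Nnmt KO and control mice on this diet.

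The libraries of Nnmt KO mice held 75643590, 82587210, 87934362 and 75020072 counts (a to d), those of control mice 87056991, 86432916, 82913139 and 79043675. Levels are given as CPM, counts relative to library size, after TMM scaling, which corrects for the share of each library taken by a few abundant genes. On this scale 3 counts stand for 0.0328 to 0.0419 CPM, a floor that covers counting error only. Log2 fold changes are those of Nnmt KO over control, and a gene was called where edgeR's quasi-likelihood test gave an adjusted p under 0.05 over all 15291 genes. An unadjusted p under 0.05 was used beside it as a weaker rule.

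Nnmt encodes the enzyme that methylates nicotinamide with S-adenosylmethionine, and it is the gene deleted by Cre. Its level was 31.8, 44.8, 68.9 and 83.0 CPM in the Nnmt KO libraries, from a to d, whereas the control libraries held 112, 224, 134 and 84.9 CPM. Each Nnmt KO library lay under each control library, with the closest pair, the libraries lettered d, at 83.0 and 84.9 CPM. Which exons Cre removed was not given in the sources used here. The mean was 57.1 ± 23.1 CPM in Nnmt KO and 139 ± 60.5 CPM in control livers (SD, n = 4 each), and the log2 fold change was -1.28 (SE 0.33). In edgeR's fit the adjusted p was 0.123, and in DESeq2's Wald test it was 0.00458. A two-sided exact permutation test of the normalized levels gave p = 0.0286, the smallest value that 4 libraries against 4 allow.

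Markers of hepatocytes were by far the most abundant of the cell type markers. The 8 hepatocyte markers, led by Alb, summed to 69392, 110093, 124843 and 120370 CPM in Nnmt KO libraries a to d and to 113751, 133586, 87462 and 99490.2 CPM in control libraries a to d. Nnmt KO library a had the lowest sum of all 8 libraries, and the genotypes overlapped. The 10 markers of stellate cells and fibroblasts, with Dcn as the most abundant, summed to 883, 536, 499.9 and 555 CPM in Nnmt KO and 387, 393, 566 and 553 CPM in control libraries a to d. Here Nnmt KO library a was the highest. The same library also had the highest sum of the 6 cholangiocyte markers, which were 279, 101, 89.4 and 178 CPM in Nnmt KO and 50.3, 61.9, 167 and 89.6 CPM in control libraries and were mostly Spp1. For the 9 markers of Kupffer cells and macrophages, led by Gpnmb, the sums were 1218, 714, 683 and 637 CPM in Nnmt KO and 564, 625, 704 and 1314 CPM in control libraries. Nnmt KO library a and control library d stood above the others in this sum, but not in each marker. Clec4f was at 96.1 CPM in Nnmt KO library a and at 114, 109 and 118 CPM in Nnmt KO libraries b to d. Vsig4 was highest in Nnmt KO library d, at 36.6 CPM.

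For the remaining cell types the summed levels also overlapped between genotypes. The 8 markers of sinusoidal endothelium, with Stab2 as the most abundant, summed to 229.8, 263, 252 and 249.95 CPM in Nnmt KO and 225, 271, 182 and 352 CPM in control libraries a to d. Sums of the 6 lymphocyte markers, led by Ptprc, were 18.2, 12.2, 8.81 and 14.0 CPM in Nnmt KO and 6.59, 5.81, 11.5 and 13.1 CPM in control libraries. The 4 neutrophil markers summed to 13.6, 7.31, 4.73 and 6.21 CPM in Nnmt KO and 5.11, 7.98, 6.38 and 12.9 CPM in control libraries, with S100a9 as the most abundant and Ly6g at 0 in every library. The median log2 fold change of the lymphocyte markers was 0.55 (0.33 without control library b to 0.80 without control library d). For 2 of them every Nnmt KO library lay above every control library, as for 3.34% of all genes tested. At an unadjusted p under 0.05, 4 of 10 stellate cell and fibroblast markers (5.45% of all genes) were higher in Nnmt KO livers in edgeR's fit, namely Rgs5, Dcn, Lrat and Reln. Epcam of the cholangiocyte markers and Cd8a of the lymphocyte markers were also higher, while the hepatocyte marker Cyp2e1 was lower (7.13% of all genes). None passed the adjusted p in edgeR's fit (0.32% of all genes). DESeq2 gave an adjusted p under 0.05 for 1 stellate cell and 1 lymphocyte marker (3.56% of all genes). The count of 4 stellate cell markers was 1 without Nnmt KO library a or control library a and 2 without Nnmt KO library b, Nnmt KO library d or control library b and with scaling by library size only, and the median log2 fold change of these markers went from 0.30 to 0.03 without Nnmt KO library a. In bulk liver RNA, fewer cells of a type and less RNA per cell cannot be told apart. The count of 1 cholangiocyte marker was 2 without Nnmt KO library b, Nnmt KO library c or control library c and 0 without any other single library, 2 lymphocyte markers were higher without control library c, and among macrophage markers 3 were higher without control library d, 1 was higher without control library b and 1 was lower without Nnmt KO library a. No hepatocyte marker was lower without control library b, where 1 was higher, and 2 were higher without Nnmt KO library a and with scaling by library size only. What part these shifts in markers had in the levels of the receptor genes was not tested.

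None of the 34 receptor genes had an adjusted p under 0.05 between the genotypes in edgeR's fit, where 0.32% of all genes tested did. The smallest adjusted p among them was 0.119. At an unadjusted p under 0.05 there were 6 members (17.6%), against 12.6% of all genes tested. Of these, Nr2f6, Nr3c2, Rara and Nr1h2 were lower in mean in Nnmt KO livers (7.13% of all genes were lower by this rule) and Nr2c2 and Nr2f1 were higher (5.45% of all genes). DESeq2's Wald test gave 7 members at an unadjusted p under 0.05 (14.2% of all genes) and 1, Nr2f6, at an adjusted p under 0.05 (3.56% of all genes). The libraries of the genotypes did not overlap for 2 members (8.16% of all genes tested), with Nr2f6 lower (4.81% of all genes) and Nr2f1 higher (3.34% of all genes) in Nnmt KO livers.

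The count of 6 rested in part on control library a, without which Nr2f6 and Nr3c2 were the 2 members at an unadjusted p under 0.05, against 8.08% of all genes in that fit. The count of members higher in mean by this rule was 0 without Nnmt KO library b, without Nnmt KO library c or without control library a, and 1 without Nnmt KO library d, control library c or control library d. Members without overlap numbered 5 without Nnmt KO library a (13.5% of all genes in that fit), 6 without Nnmt KO library b (11.2%), 4 without Nnmt KO library c (11.2%), 8 without control library b (11.1%) and 4 without control library c (14.2%). By sign alone, 17 members had a positive and 17 a negative log2 fold change, and the signs of Nr2f2 and Pparg turned with scaling by library size only and that of Thrb with every other scaling tried. The median log2 fold change was 0.04 over the members and 0.02 over all genes tested, and the median absolute log2 fold change was 0.18 and 0.19, respectively. For 28 members the 95% interval of the log2 fold change lay within 1 on either side of 0, and for 6 it did not. The median standard error was 0.17.

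**Figure D1:**
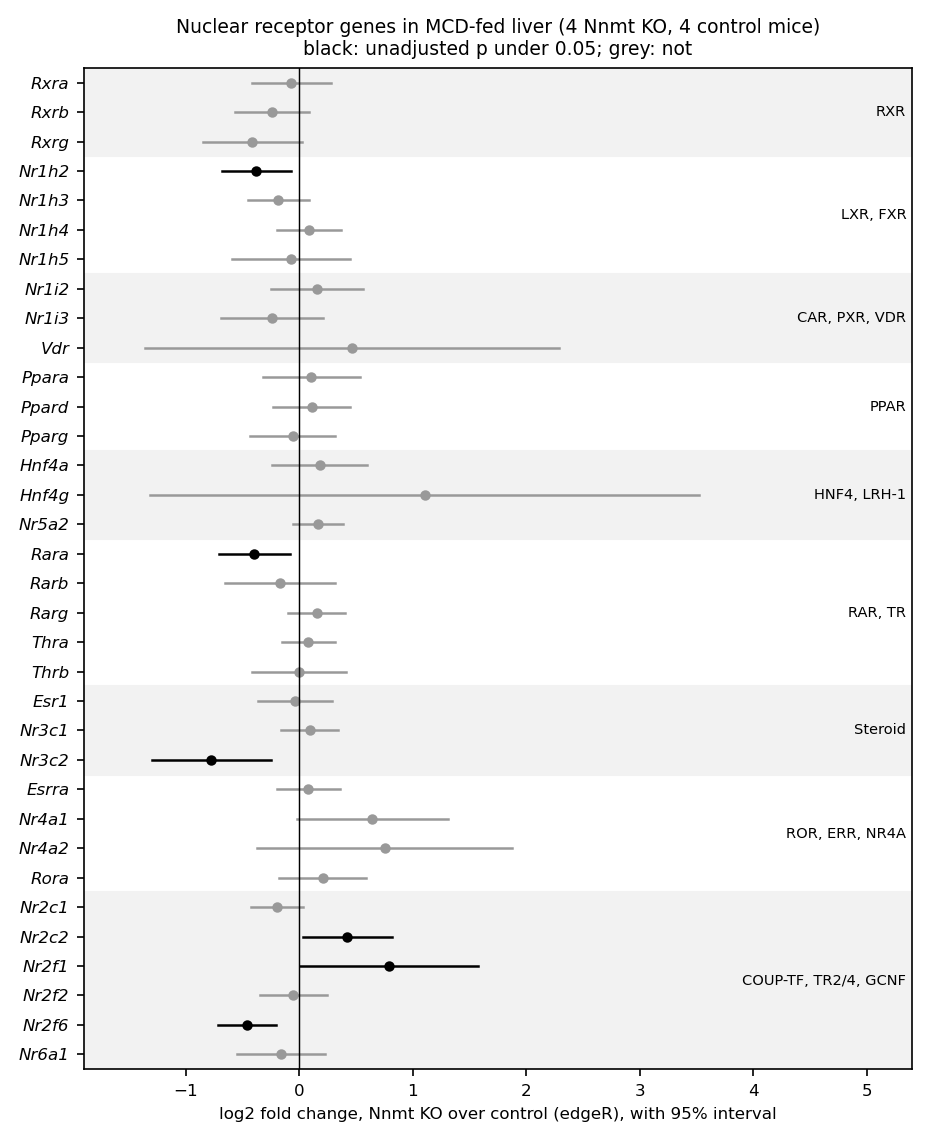
Log2 fold change of each of the 34 nuclear receptor genes between the livers of 4 Nnmt KO and 4 control mice (x axis, with the 95% interval of edgeR's fit as a bar), grouped by role on the y axis. The 6 genes in black had an unadjusted p under 0.05, from Nr3c2 at -0.78 to Nr2f1 at 0.79, and Hnf4g had the widest interval, -1.32 to 3.53.

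Among the sterol and bile acid receptors, Nr1h2, Nr1h3, Nr1h4 and Nr1h5 had log2 fold changes from -0.38 to 0.08. Nr1h2 (ENSMUSG00000060601, chr7:44549616-44553951, minus strand, GRCm38) encodes LXR beta, the oxysterol receptor found in most tissues. It was at 44.9, 39.0, 37.2 and 30.2 CPM in Nnmt KO libraries a to d and at 55.8, 53.6, 43.5 and 43.8 CPM in control libraries a to d. Nnmt KO libraries b, c and d lay under every control library, while Nnmt KO library a lay among the control libraries. The mean was 37.8 ± 6.08 CPM in Nnmt KO and 49.2 ± 6.44 CPM in control livers (SD, n = 4 each). This is a log2 fold change of -0.38 (SE 0.14, 95% interval -0.68 to -0.07, unadjusted p = 0.0193, edgeR's adjusted p = 0.282). This unadjusted p rose over 0.05 with scaling by library size only and without Nnmt KO library d, control library a or control library b.

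Nr1h3 encodes LXR alpha, the LXR enriched in the liver, which drives Srebf1 and cholesterol export. Its level was 106, 142, 118 and 114 CPM in Nnmt KO and 147, 149.6, 129 and 122 CPM in control libraries a to d. Control libraries a and b were the highest, and the genotypes overlapped through Nnmt KO library b. A log2 fold change of -0.19 resulted (SE 0.12, unadjusted p = 0.155). Nr1h4 encodes FXR, the bile acid receptor. It stood at 58.6, 83.0, 83.7 and 68.2 CPM in Nnmt KO and at 68.6, 75.6, 64.5 and 68.9 CPM in control libraries a to d, so that the Nnmt KO libraries spread over a wider range that enclosed all control libraries. Its log2 fold change was 0.08 (95% interval -0.20 to 0.36, unadjusted p = 0.545). Nr1h5, the FXR beta of rodents, was low in both genotypes, at 1.07 to 1.23 CPM in Nnmt KO and 0.924 to 1.36 CPM in control livers.

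The receptors for xenobiotics, Nr1i2 (PXR) and Nr1i3 (CAR), induce cytochrome P450 genes when foreign compounds enter the liver. Nr1i2 was at 81.7, 117, 126 and 113 CPM in Nnmt KO and 88.2, 133, 98.2 and 75.1 CPM in control libraries a to d. Its highest and its lowest library were both control libraries, and the log2 fold change was 0.15 (SE 0.18, unadjusted p = 0.425). Nr1i3 was at 76.4, 131, 108 and 109.5 CPM in Nnmt KO and 142, 165, 103 and 93.4 CPM in control libraries a to d. The genotypes overlapped, with control libraries a and b above and Nnmt KO library a below the rest, and the log2 fold change was -0.24 (SE 0.20, unadjusted p = 0.258). Vdr, which encodes the vitamin D receptor and is known to be scarce in hepatocytes, had 32, 9, 15 and 32 counts in Nnmt KO and 24, 17, 0 and 23 counts in control libraries. The 95% interval of its log2 fold change ran from -1.36 to 2.29, and a difference within it was not detectable in these libraries.

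Of the fatty acid receptors, Ppara is the main regulator of hepatic fatty acid oxidation in fasting. Its level was 88.6, 129, 126 and 78.0 CPM in Nnmt KO and 85.1, 124, 77.0 and 106 CPM in control libraries a to d. Both genotypes held high and low libraries, and the Nnmt KO libraries covered nearly the same range as the control libraries. For Ppara the log2 fold change was 0.10 (SE 0.20, 95% interval -0.32 to 0.53, unadjusted p = 0.605), and it turned to -0.01 without Nnmt KO library b. Ppard, found in most tissues, was at 7.90 to 10.5 CPM in Nnmt KO and 6.90 to 9.92 CPM in control libraries, with a log2 fold change of 0.11. Pparg, the adipocyte receptor that is also expressed in fatty liver, was at 4.89 to 7.50 and 5.07 to 6.55 CPM, and the sign of its log2 fold change of -0.06 turned with scaling by library size only.

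Hnf4a maintains the expression programme of the hepatocyte. It was at 426, 719.5, 772 and 636 CPM in Nnmt KO and 502, 691, 492 and 573 CPM in control libraries a to d. Nnmt KO library a, which had the lowest hepatocyte marker sum, was also the lowest of all 8 libraries for Hnf4a, while Nnmt KO libraries b and c were the highest. With all libraries the log2 fold change was 0.18 (SE 0.19, unadjusted p = 0.373), and without Nnmt KO library a it was 0.33 with an unadjusted p of 0.0449. Its relative Hnf4g, better known from the gut, had 24, 0, 14 and 23 counts in Nnmt KO and 3, 4, 22 and 0 counts in control libraries a to d. These gave no direction, with a 95% interval of -1.32 to 3.53 for the log2 fold change. Nr5a2 encodes LRH-1, a regulator of bile acid synthesis. Levels of Nr5a2 were 24.1, 23.5, 25.3 and 28.4 CPM in Nnmt KO and 21.1, 22.5, 23.8 and 23.1 CPM in control libraries a to d, with Nnmt KO library b under control library c as the only overlap. For Nr5a2 the log2 fold change was 0.16 (SE 0.10, 95% interval -0.06 to 0.38, unadjusted p = 0.134).

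Retinoid X receptors are the shared partners of LXR, FXR, PXR, CAR, PPAR, RAR, TR and VDR. Rxra, the form that prevails in the liver, was at 395, 523, 536 and 444 CPM in Nnmt KO and 481, 626, 413 and 474 CPM in control libraries a to d. Apart from control library b, which was the highest, the libraries of both genotypes were mixed. For Rxra the log2 fold change was -0.07 (SE 0.16, 95% interval -0.42 to 0.28, unadjusted p = 0.658), and it was 0.01 without Nnmt KO library a and 0.07 without control library b. Rxrb was at 33.8 to 49.4 CPM in Nnmt KO and 40.1 to 54.5 CPM in control libraries (log2 fold change -0.24, unadjusted p = 0.130, under 0.05 without Nnmt KO library c). Rxrg was the least abundant, at 2.79 to 4.31 and 3.55 to 5.05 CPM (log2 fold change -0.42, unadjusted p = 0.0598, under 0.05 without Nnmt KO library b or control library b), and control library b fell among the Nnmt KO libraries.

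The retinoic acid and thyroid hormone receptors are the classical partners of the retinoid X receptors. Rara (ENSMUSG00000037992, chr11:98927818-98974942, plus strand, GRCm38) encodes retinoic acid receptor alpha. Its level was 17.00, 25.5, 20.4 and 19.0 CPM in Nnmt KO and 28.6, 31.1, 23.1 and 25.03 CPM in control libraries a to d. Nnmt KO libraries a, c and d were the lowest of the 8, and Nnmt KO library b lay among the control libraries. The mean was 20.5 ± 3.62 CPM in Nnmt KO and 27.0 ± 3.59 CPM in control livers (SD, n = 4 each), with a log2 fold change of -0.40 (SE 0.14, 95% interval -0.71 to -0.08, unadjusted p = 0.0186, edgeR's adjusted p = 0.280). The unadjusted p passed 0.05 without Nnmt KO library a, control library a or control library b. Rarb was at 1.64 to 2.73 CPM in Nnmt KO and 1.94 to 2.85 CPM in control libraries, and Rarg at 9.40 to 10.5 and 8.46 to 9.79 CPM, with log2 fold changes of -0.17 and 0.15. For the thyroid hormone receptors the log2 fold changes were 0.08 for Thra and -0.01 for Thrb, whose sign turned with every other scaling tried. Thra varied little among the 4 Nnmt KO libraries, from 14.97 to 16.2 CPM.

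Of the steroid receptors, Nr3c2 (ENSMUSG00000031618, chr8:76899442-77245012, plus strand, GRCm38) encodes the mineralocorticoid receptor, which binds aldosterone and also glucocorticoids. Its level was 5.95, 4.002, 3.92 and 3.79 CPM in Nnmt KO and 9.01, 6.25, 5.06 and 9.99 CPM in control libraries a to d. Nnmt KO libraries b, c and d lay close together under every control library, and Nnmt KO library a lay between control libraries c and b. The mean was 4.42 ± 1.03 CPM in Nnmt KO and 7.58 ± 2.31 CPM in control livers (SD, n = 4 each), that is 58.3% of control. No member had a lower log2 fold change than Nr3c2, at -0.78 (SE 0.24, 95% interval -1.30 to -0.25, unadjusted p = 0.00740, edgeR's adjusted p = 0.196). It kept an unadjusted p under 0.05 in all 12 alternatives. Nr3c1, the glucocorticoid receptor, was at 26.9, 26.6, 26.2 and 27.9 CPM in Nnmt KO and 21.4, 23.3, 27.5 and 28.9 CPM in control libraries a to d. The Nnmt KO libraries fell within the wider range of the control libraries, and the log2 fold change was 0.09 (SE 0.11, 95% interval -0.16 to 0.34, unadjusted p = 0.447). Esr1, the estrogen receptor alpha gene, was at 8.49 to 11.2 CPM in Nnmt KO and 9.11 to 12.7 CPM in control livers, with a log2 fold change of -0.04.

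The COUP transcription factors and the testicular and germ cell receptors are orphan receptors, for most of which no natural ligand is established, and COUP factors often repress. Nr2f6 (ENSMUSG00000002393, chr8:71374123-71381960, minus strand, GRCm38), also known as EAR2, was at 75.3, 79.4, 82.6 and 87.2 CPM in Nnmt KO and 131, 115, 96.2 and 105 CPM in control libraries a to d. Every Nnmt KO library was lower than every control library. The mean was 81.1 ± 5.05 CPM in Nnmt KO and 112 ± 14.8 CPM in control livers (SD, n = 4 each), or 72.7% of control. Its log2 fold change was -0.46 (SE 0.12, 95% interval -0.72 to -0.20), and its unadjusted p = 0.00223 was the smallest of the members. In edgeR's fit the adjusted p was 0.119, in DESeq2's Wald test it was 0.0163, and over the 12 alternatives it ranged from 0.0163 to 0.388. The unadjusted p stayed under 0.05 in all of them.

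Nr2f1 (ENSMUSG00000069171, chr13:78188973-78199757, minus strand, GRCm38), or COUP-TFI, went the other way from a very low level. It had 56, 46, 50 and 68 counts in Nnmt KO and 24, 29, 38 and 39 counts in control libraries a to d, which is 0.613, 0.570, 0.597 and 0.949 CPM and 0.289, 0.383, 0.438 and 0.464 CPM, respectively. Every Nnmt KO library lay above every control library, and Nnmt KO library d was far above the other 3. Its log2 fold change was 0.79 (SE 0.36, 95% interval 0.00 to 1.57, unadjusted p = 0.0491, edgeR's adjusted p = 0.395). The unadjusted p was over 0.05 with scaling by library size only and in each of the 8 fits that left out a library. Its relative Nr2f2, or COUP-TFII, was at 10.4 to 13.0 CPM in Nnmt KO and 11.1 to 14.7 CPM in control libraries, and the sign of its log2 fold change (-0.05) turned with scaling by library size only.

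Nr2c2 (ENSMUSG00000005893, chr6:92091390-92174294, plus strand, GRCm38) encodes the testicular receptor TR4. It was at 15.2, 16.3, 19.2 and 16.9 CPM in Nnmt KO and 8.81, 15.8, 11.04 and 14.9 CPM in control libraries a to d. Nnmt KO libraries b, c and d were above every control library, and control libraries a and c were clearly the lowest. The mean was 16.9 ± 1.65 CPM in Nnmt KO and 12.6 ± 3.29 CPM in control livers (SD, n = 4 each), with a log2 fold change of 0.42 (SE 0.18, 95% interval 0.03 to 0.81, unadjusted p = 0.0383, edgeR's adjusted p = 0.362). This p was over 0.05 without Nnmt KO library b, c or d and without control library a or c. The related Nr2c1 (TR2) had a log2 fold change of -0.20 (unadjusted p = 0.0884), with Nnmt KO libraries at 13.9 to 16.5 CPM and control libraries at 16.2 to 18.4 CPM. Nr6a1, the germ cell nuclear factor, had one of -0.16.

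**Figure D2:**
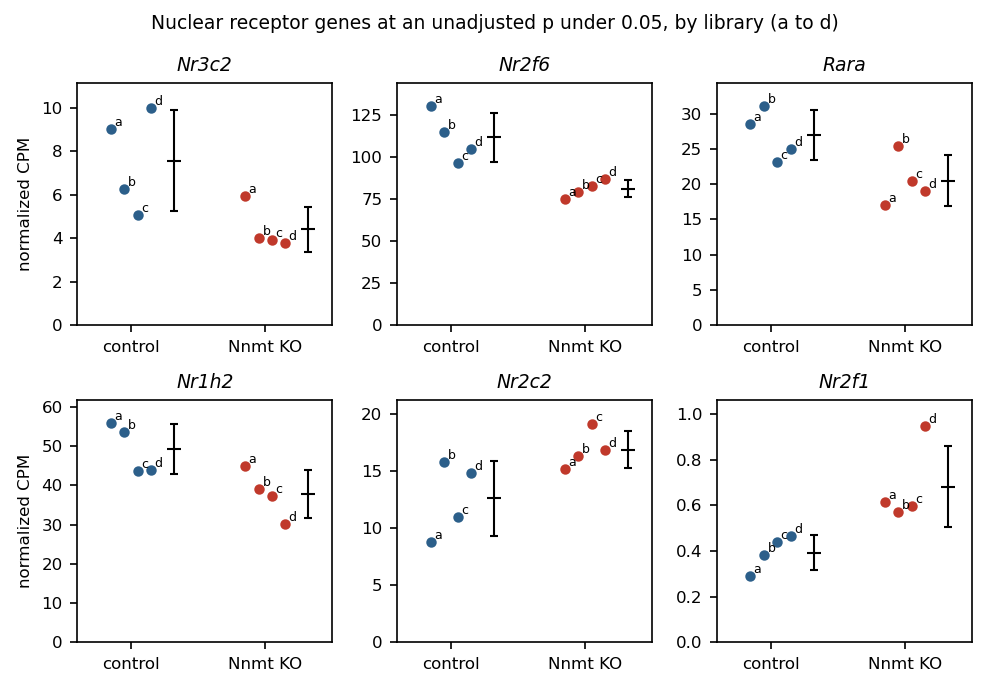
Normalized level in CPM (y axis, from 0) of the 6 nuclear receptor genes with an unadjusted p under 0.05, with 1 point per library lettered a to d and, beside the points, the mean with its SD (n = 4). The Nnmt KO libraries of Nr2f6 (75.3 to 87.2 CPM) lay under and those of Nr2f1 (0.570 to 0.949 CPM) above all control libraries, whereas the genotypes overlapped for the other 4.

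Rora, Esrra, Nr4a1 and Nr4a2 had positive log2 fold changes of 0.21, 0.08, 0.64 and 0.75, and none had an unadjusted p under 0.05 in edgeR's fit of all libraries. Rora had one without control library c. Nr4a1 is an immediate early gene that responds within minutes to hormones and stress. Its level was 8.23, 9.90, 20.8 and 7.78 CPM in Nnmt KO and 6.39, 9.89, 7.67 and 5.93 CPM in control libraries a to d, and Nnmt KO library c alone stood far above all others. The unadjusted p was 0.0562 in edgeR's fit and 0.0349 in DESeq2's, which makes Nr4a1 the additional member called by DESeq2. In edgeR it was under 0.05 with scaling by library size only and without Nnmt KO library a, Nnmt KO library d or control library b. Nr4a2 was low, with 6 to 32 counts per library, at 0.179 to 0.350 CPM in Nnmt KO and 0.0792 to 0.207 CPM in control livers. Esrra, a regulator of mitochondrial genes, was at 47.9 to 58.0 CPM in Nnmt KO and 42.1 to 59.8 CPM in control livers. Rora, which acts in the circadian clock, was at 23.4 to 35.9 and 20.5 to 33.6 CPM.

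Between genes, levels are compared as CPM per kilobase of exon. The length is that of all annotated exons of a gene joined, which need not be the length of the transcripts made in these livers. On this scale the order over all 8 libraries was led by Hnf4a (mean 125, range 88.2 to 159.9), followed by Rxra at 89.1 and Nr1h3 at 51.1. Next came Nr1i2 at 40.8, Nr2f6 at 32.3, Nr1h4 at 31.0, Ppara at 26.5 and Nr1i3 at 26.3 CPM per kilobase. Below these 8 genes, known for lipid, bile acid and drug metabolism apart from the orphan receptor Nr2f6, the level dropped to 13.0 for Nr1h2, 11.7 for Esrra and 11.1 for Rxrb. The lowest levels were those of Nr2f1 (0.106), Nr4a2 (0.0525), Hnf4g (0.0520) and Vdr (0.0415), the 4 members under 1 CPM. Of the 33 pairs of neighbours in this order, 8 kept their order in all 8 libraries. These were Hnf4a over Rxra, Rxra over Nr1h3, Nr1h4 over Ppara, Nr1i3 over Nr1h2, Rxrb over Rara, Esr1 over Rarb, Nr1h5 over Nr2f1 and Nr2f1 over Nr4a2. The other pairs changed places in at least 1 library. Nr2f6 was above Nr1h4 in every control library and below it in every Nnmt KO library. In Nnmt KO library a they were nearly equal, at 25.23 for Nr2f6 and 25.45 for Nr1h4. Their order also depends on the exon lengths used, 2.98 kb for Nr2f6 and 2.30 kb for Nr1h4. Among the 20 members with a mean over 10 CPM over all 8 libraries, the Nnmt KO mean was between 72.7% and 134% of the control mean.

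**Figure D3:**
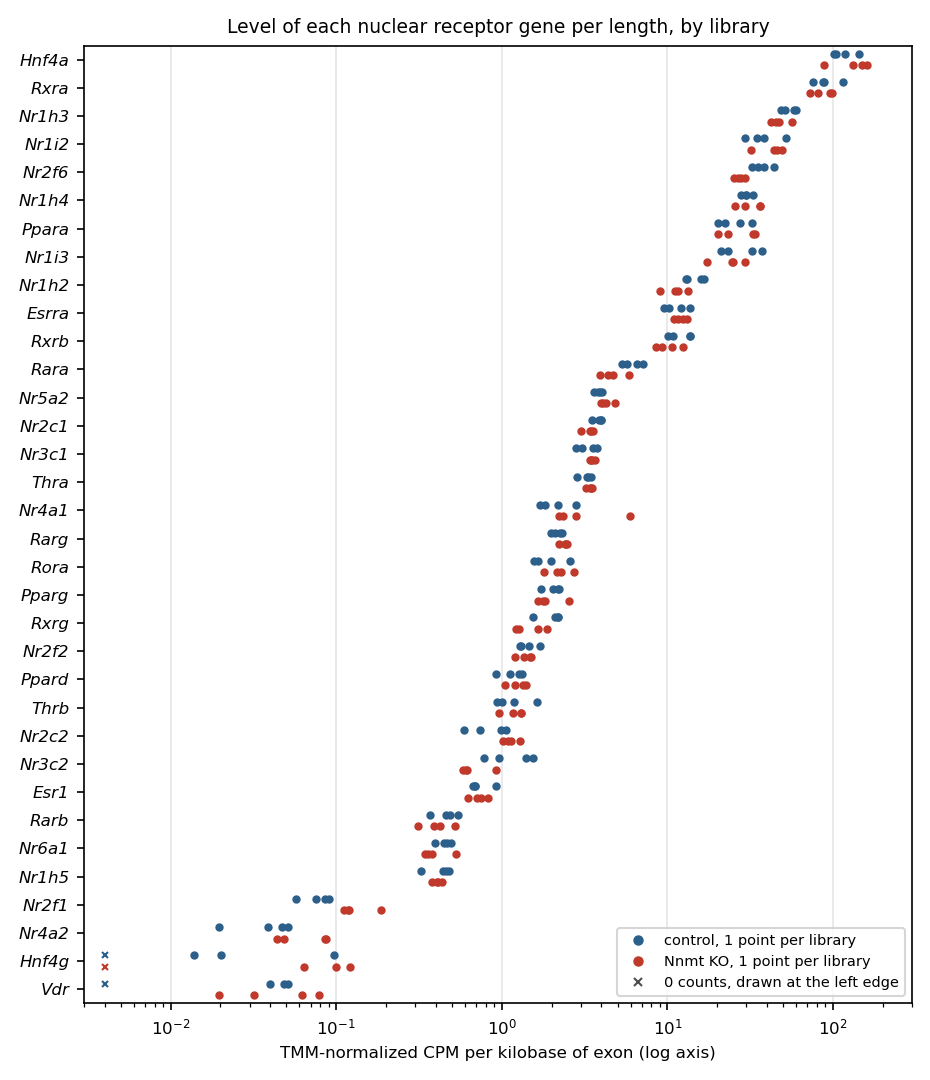
Level of each nuclear receptor gene in every library as TMM-normalized CPM per kilobase of exon (x axis, log scale), with genes in order of their mean level on the y axis, control libraries in blue and Nnmt KO libraries in red. The genes span from Hnf4a at 125 to Vdr at 0.0415, and crosses at the left edge mark libraries with 0 counts.

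Within families, the share of each form was taken from levels per kilobase. Rxra made up 88.1 ± 0.438% of retinoid X receptor transcripts in Nnmt KO and 86.5 ± 1.72% in control livers (SD, n = 4 each), Ppara 89.1 ± 3.08% and 88.6 ± 2.27% of PPAR transcripts, and Nr1h3 80.8 ± 3.44% and 78.8 ± 0.809% of LXR transcripts. These dominant forms were thus the same in both genotypes. Among retinoic acid receptors the share of Rarg was 28.4 to 35.4% in Nnmt KO and 20.8 to 26.5% in control libraries, with no overlap, while that of Rara was 57.0 to 67.1% and 66.8 to 74.4%, with overlap. A share also moves with the other members of its family. The level of Rarg itself overlapped between genotypes (log2 fold change 0.15, edgeR's unadjusted p = 0.217), and Rara had a log2 fold change of -0.40. Thra held 74.2 ± 3.17% of thyroid hormone receptor transcripts in Nnmt KO and 73.2 ± 5.50% in control livers. In the pair of xenobiotic receptors, Nr1i3 held 33.2 to 39.2% in Nnmt KO and 37.7 to 48.3% in control libraries, which overlapped. This share depends on the exon lengths used, 4.41 kb for Nr1i3 and 2.55 kb for Nr1i2. Without division by length, Nr1i3 had a mean of 126 CPM and Nr1i2 of 98.6 CPM in control livers. In Nnmt KO livers these means were 106 and 110 CPM. Among the COUP factors Nr2f6 held 94.0 to 95.5% and 95.4 to 96.6%, and Nr2f1 held 0.399 to 0.602% and 0.125 to 0.254%. The families' shares were compared without a test. They depend on the exon lengths used and, where an antisense gene shares exons, on whether the counting used strand.

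Some of these genes share exons with a gene on the other strand, and whether the counting used strand was not given in the sources used here. Without strand, reads from a gene and its antisense partner cannot be told apart. In GENCODE's annotation M21 of GRCm38, 74.9% of the exon bases of Nr1i3 overlap exons of Tomm40l, 54.4% of those of Nr2f6 overlap Ocel1, 34.1% of those of Rarb overlap Top2b, and 30.7% of those of Nr2c2 overlap Mrps25. Ocel1 was itself lower in mean in Nnmt KO livers, at 16.3, 21.5, 19.8 and 19.5 CPM against 21.7, 26.9, 27.1 and 19.7 CPM in control libraries a to d. The libraries of Ocel1 overlapped between genotypes, and the log2 fold change was -0.31 (SE 0.14, unadjusted p = 0.0456). Mrps25 had a log2 fold change of -0.18 (unadjusted p = 0.169), opposite in sign to Nr2c2, and Tomm40l one of -0.17 (unadjusted p = 0.254). Top2b had one of 0.28 (unadjusted p = 0.243). Smaller overlaps were present for Nr2f2 (7.46%, with B130024G19Rik), Thra (5.70%, with Nr1d1), Nr3c2 (3.82%), Nr2f1 (2.42%) and Esrra (1.66%), among others. Of these partners, Nr1d1 stood at mean levels of 72.5 CPM in Nnmt KO and 95.8 CPM in control livers. Thra itself stood at 15.7 and 14.9 CPM. No stretch of 100 bases was shared between the transcripts of 2 members. How far reads from a partner entered the counts of Nr2f6, Nr2c2, Nr1i3, Thra or any other member was not tested.

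The median of the genes around each of the 6 lay close to 0. Within 5 Mb on either side, the median log2 fold change of the other tested genes was -0.06 around Nr2f6 (125.0 genes), -0.01 around Nr3c2 (47.0 genes), -0.03 around Rara (225.0 genes) and -0.05 around Nr1h2 (125.0 genes). Around Nr2c2 it was -0.02 (59.0 genes) and around Nr2f1 0.05 (43.0 genes). Around Nr3c2, 1 of the 47 neighbours had a lower log2 fold change than Nr3c2, and around Nr2f6 6 of 125 had a lower one than Nr2f6. For Rara this held for 16 of 225 neighbours and for Nr1h2 for 17 of 125. Of the neighbours of the higher genes, 50 of 59 lay below Nr2c2 and 42 of 43 below Nr2f1.

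Promoters from RefSeq (GRCm38.p6) were listed for 31 of the 34 members, with 47 start sites in all, and not for Thra, Hnf4g and Nr3c1. In the window upstream of a start, the motif GGGCGG (GC box, either strand) occurred in 21 of the 47 (44.7%), against 32.7% of all 32851 promoters. The hexamer AGGTCA, to which many nuclear receptors bind, occurred in 9 (19.1%, against 14.0% of all), including promoters of Nr1h4, Nr5a2, Pparg and Rxra. The E-box CACGTG occurred in 3 (6.38%, against 6.02%), and neither the cyclic AMP response element TGACGTCA (1.55% of all promoters) nor the element TGATGCAAT bound by ATF4 (0.167%) was in any of the 47. The median GC content was 59.6% for the members and 52.4% for all promoters. The upstream sequences of Nr2f6, Rara and Nr1h2 are shown, 5′ to 3′, because these 3 genes were lower in mean at an unadjusted p under 0.05 and their windows hold at most 8 bases of annotated exon. Capitals mark GC boxes on either strand, and none of the 3 holds AGGTCA. The window of Nr2f6 (chr8:71381953-71382202, minus strand) holds 7 GC boxes, some of which overlap by a base, that of Rara (chr11:98937446-98937695, plus strand, the most upstream of its 4 start sites) holds 4, and that of Nr1h2 (chr7:44553966-44554215, minus strand) holds 0. A match of letters is a description and not a measured site.
Nr2f6: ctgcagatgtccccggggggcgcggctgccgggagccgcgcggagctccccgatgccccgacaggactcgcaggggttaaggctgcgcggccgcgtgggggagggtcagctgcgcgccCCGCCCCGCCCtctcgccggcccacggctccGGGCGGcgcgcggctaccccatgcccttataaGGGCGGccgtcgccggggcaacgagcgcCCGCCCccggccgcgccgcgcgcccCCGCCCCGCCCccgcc
Rara: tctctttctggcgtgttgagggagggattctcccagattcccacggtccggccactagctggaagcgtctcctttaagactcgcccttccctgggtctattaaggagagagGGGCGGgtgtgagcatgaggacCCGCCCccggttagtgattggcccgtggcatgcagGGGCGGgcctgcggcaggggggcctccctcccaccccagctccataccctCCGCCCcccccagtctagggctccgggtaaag
Nr1h2: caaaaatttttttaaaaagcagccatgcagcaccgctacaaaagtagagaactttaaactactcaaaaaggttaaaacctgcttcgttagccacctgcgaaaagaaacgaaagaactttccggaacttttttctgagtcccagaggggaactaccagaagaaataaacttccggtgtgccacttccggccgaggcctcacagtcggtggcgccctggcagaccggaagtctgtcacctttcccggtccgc
The 3 genes of like direction thus had upstream regions of unlike base composition, with a GC content of 82.4% for Nr2f6, 65.2% for Rara and 48.4% for Nr1h2.

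Of 15 other nuclear receptor genes outside the 34, 8 had enough counts to be tested. By unadjusted p under 0.05, 2 of them were higher (5.45% of all genes) and 2 lower (7.13% of all genes). None had an adjusted p under 0.05 in edgeR's fit (0.32% of all genes) or in DESeq2's (3.56% of all genes). Nr0b2 encodes SHP, the receptor without a DNA-binding domain through which FXR represses bile acid synthesis. It was at 8.95, 13.6, 18.4 and 14.3 CPM in Nnmt KO and 20.3, 18.4, 22.9 and 24.7 CPM in control libraries a to d. Nnmt KO library c lay under control library b by less than the digits shown, at 18.390 and 18.394 CPM, and the other libraries were clearly apart. The log2 fold change was -0.64 (SE 0.19, unadjusted p = 0.00649, edgeR's adjusted p = 0.188). Nr1d2 (REV-ERB beta) had a log2 fold change of 0.33 (unadjusted p = 0.0422) and Esrrg one of 1.04 (unadjusted p = 0.0445) at 0.339 to 0.793 CPM in Nnmt KO and 0.158 to 0.464 CPM in control libraries. Nr1d1 (REV-ERB alpha), whose exons overlap those of Thra, had one of -0.40 (unadjusted p = 0.0484). The count of 2 higher was 0 without Nnmt KO library c, Nnmt KO library d or control library b, and 1 without Nnmt KO library b or control library a, c or d. The count of 2 lower was 1 without Nnmt KO library a, c or d or control library d, and also 1 with DESeq2's size factors and without the filter on low counts, while each count was 1 with scaling by library size only. Nr0b1, Nr2e1, Nr2e3, Nr5a1, Rorb and Pgr had 0 counts in every library, and Esr2 had 7 counts in control library b and 9 in control library c.

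Among 20 coregulators, which carry the signal of the receptors to chromatin, 1 was higher (5.45% of all genes) and 0 lower (7.13% of all genes) by unadjusted p in edgeR's fit, with the same counts in DESeq2's, and the median log2 fold change was 0.03 (0.02 to 0.09 over the alternatives). That gene was Ppargc1a, the coactivator PGC-1 alpha, which is induced in fasting and works with PPARA, HNF4A and ERRA. Its level was 15.4, 18.5, 23.1 and 26.6 CPM in Nnmt KO and 12.9, 12.3, 10.5 and 11.8 CPM in control libraries a to d. Every Nnmt KO library was above every control library. The log2 fold change was 0.82 (SE 0.17, unadjusted p = 0.000409, edgeR's adjusted p = 0.0711, DESeq2's adjusted p = 0.00104). Without control library d, 2 coregulators were higher and 1 lower. For Carm1 and Tbl1x, next by p, the log2 fold changes were -0.27 and -0.17 (unadjusted p = 0.0580 and 0.138).

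The targets of the receptors were taken as lists of known target genes, many of which answer to several factors. Of 19 PPARA targets, many of which act in fatty acid oxidation, 4 were higher (5.45% of all genes) and 1 was lower (7.13% of all genes) at an unadjusted p under 0.05, and the median log2 fold change was 0.18 (from 0.06 without control library d to 0.27 without Nnmt KO library a). Pdk4, the kinase that holds pyruvate back from oxidation, was at 263, 145, 198 and 132 CPM in Nnmt KO and 54.0, 70.8, 99.2 and 69.8 CPM in control libraries a to d. All Nnmt KO libraries were higher than all control libraries, with Nnmt KO library a as the highest. Pdk4 rose with a log2 fold change of 1.33 (SE 0.24), at an adjusted p of 0.0496 in edgeR's fit and 1.15e-05 in DESeq2's. The adjusted p in edgeR was over 0.05 with either other scaling, without the filter on low counts and in 7 of the 8 fits that left out a library (0.0324 without Nnmt KO library a, 0.0679 to 0.216 without any other). The thioesterase gene Acot1 was at 58.7, 79.8, 94.2 and 107 CPM in Nnmt KO and 27.2, 33.4, 32.8 and 10.9 CPM in control libraries (log2 fold change 1.70, edgeR's adjusted p = 0.0528). Ehhadh, of peroxisomal oxidation, was at 815, 1284, 895 and 980.3 CPM and 424, 617, 639 and 442 CPM (log2 fold change 0.91, edgeR's adjusted p = 0.0725). Neither overlapped between genotypes. Cyp4a10 was the other target that was higher, and Fgf21, the fasting hormone, was the lower one, with log2 fold changes of 0.66 and -0.85. An adjusted p under 0.05 was reached by 4 targets in DESeq2's test (3.56% of all genes) and by 5 in edgeR's without Nnmt KO library a, where 149 of all 15477 genes reached it instead of 49 of 15291, against 0 without Nnmt KO library b, c or d or control library a, b or c. The count of higher targets was 8 with scaling by library size only, 7 without Nnmt KO library a and 3 without Nnmt KO library b, Nnmt KO library d or control library c.

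Of the 13 glucocorticoid receptor targets, 4 were higher (5.45% of all genes) and 0 lower (7.13% of all genes) at an unadjusted p under 0.05. None had an adjusted p under 0.05 in edgeR's fit (0.32% of all genes) and 1 did in DESeq2's (3.56% of all genes). Their median log2 fold change was 0.43 (from 0.29 without Nnmt KO library c to 0.69 without control library b). The 3 of smallest p were Igfbp1, Tdo2 and Sgk1. Igfbp1 was at 1439, 868, 1795 and 1321 CPM in Nnmt KO and 618, 887, 687 and 470.0 CPM in control libraries a to d, so that the genotypes overlapped only through Nnmt KO library b and control library b. Its log2 fold change was 1.03 (SE 0.24, edgeR's adjusted p = 0.0986, DESeq2's adjusted p = 0.00135). Tdo2, which opens tryptophan breakdown, and the kinase gene Sgk1 had log2 fold changes of 0.63 and 0.43 (unadjusted p = 0.0201 and 0.0316). The count of 4 depended on single libraries, as it was 9 without control library b, 6 without Nnmt KO library a, 2 without Nnmt KO library c, Nnmt KO library d, control library a or control library c, and 1 without control library d. With scaling by library size only it was 7. Of all genes, 8.08% to 14.1% had an unadjusted p under 0.05 in either direction in the fits that left out a library. With scaling by library size only 9.4% did. These shares stand beside the counts of the other lists as well.

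The targets of HNF4A, 13 in number, had a median log2 fold change of -0.02 (-0.14 to 0.09 over the alternatives), with 1 gene higher (5.45% of all genes) and 1 lower (7.13% of all genes) at an unadjusted p under 0.05. The higher count was 2 with DESeq2's size factors or without the filter on low counts, 4 without Nnmt KO library a and with scaling by library size only, each with 1 gene at an adjusted p under 0.05, and 2 without control library b or d. The lower count was 0 without the filter on low counts, without Nnmt KO library a, b or d and without control library a or b. G6pc, the last enzyme of gluconeogenesis, was at 395, 526, 461 and 667 CPM in Nnmt KO and 226, 382, 232 and 213 CPM in control libraries a to d, with no overlap (log2 fold change 0.96, adjusted p = 0.0907 in edgeR's fit and 0.00139 in DESeq2's). The coagulation factor gene F7 had a log2 fold change of -0.46 (unadjusted p = 0.0442) and Apob one of 0.35 (unadjusted p = 0.0537). The 11 LXR targets, with a median of -0.03 (-0.08 to 0.15 over the alternatives), also had 1 gene higher and 1 lower, against the same shares of all genes, and 2 higher without Nnmt KO library b or d or control library c or d. Srebf1, the driver of fatty acid synthesis, was at 98.0, 123, 104 and 101 CPM in Nnmt KO and 132, 204, 169 and 127 CPM in control libraries, with each Nnmt KO library under each control library. The log2 fold change was -0.57 (SE 0.16, unadjusted p = 0.00436, edgeR's adjusted p = 0.160, DESeq2's adjusted p = 0.0327). Smpdl3a was higher without overlap, at 53.5 to 60.0 CPM in Nnmt KO and 41.5 to 49.9 CPM in control libraries (log2 fold change 0.33, unadjusted p = 0.00657), and Lpl had a log2 fold change of 0.66 (unadjusted p = 0.0598).

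None of the 14 CAR and PXR targets passed an unadjusted p of 0.05 in edgeR's fit (12.6% of all genes in either direction) and 1, lower, did in DESeq2's (14.2% of all genes in either direction). In edgeR 4 were higher without Nnmt KO library a (13.3% of all genes in either direction), 2 with scaling by library size only (9.4%) and 1 without control library a (8.08%). Without control library b 1 was higher and 1 lower (10.2%), and 1 was lower without control library c (14.1%). Their median log2 fold change was 0.19 (0.07 to 0.25 over the alternatives, lowest without control library d and highest with scaling by library size only). The 3 of smallest p, Gsta1 (-0.46), Cyp2b10 (0.67) and Cyp2c29 (0.72), were of mixed sign. Of the FXR-induced targets, 5 of 6 were tested and Nr0b2 alone, which was lower, had an unadjusted p under 0.05 (7.13% of all genes were lower by this rule). Their median log2 fold change was -0.07 (-0.20 to 0.07 over the alternatives). None of the 3 genes repressed by FXR through SHP passed it, against 12.6% of all genes in either direction. Their median log2 fold change was -0.19 (-0.32 to 0.01 over the alternatives), with Cyp8b1 at 0.36, Cyp7a1 at -0.19 and Slc10a1 at -0.34. Cyp7a1, the first enzyme of bile acid synthesis, was at 17.3 to 23.2 CPM in Nnmt KO and 17.5 to 31.9 CPM in control libraries. Of 5 thyroid hormone receptor targets 1 was lower (7.13% of all genes), the deiodinase gene Dio1, at 39.8, 41.7, 24.9 and 24.4 CPM in Nnmt KO and 39.9, 59.8, 63.5 and 56.5 CPM in control libraries a to d. Control library a, at 39.9 CPM, fell among the Nnmt KO libraries, and the log2 fold change was -0.75 (unadjusted p = 0.00380, edgeR's adjusted p = 0.149, DESeq2's adjusted p = 0.0250). No retinoic acid receptor target passed an unadjusted p of 0.05 among the 5 of 6 tested, against 12.6% of all genes in either direction. Their median log2 fold change was -0.11 (-0.17 to 0.06 over the alternatives). In the ROR and REV-ERB list 1 of 7 was lower (7.13% of all genes), the clock gene Arntl, with a log2 fold change of -0.79 (unadjusted p = 0.0481) that rested on control library d at 14.6 CPM, against 3.38 to 5.23 CPM in Nnmt KO libraries and 4.22 to 6.29 CPM in the other control libraries. In the ERRA list 1 of 7 was lower (7.13% of all genes), citrate synthase (Cs), at 152 to 171 CPM in Nnmt KO and 184 to 224 CPM in control libraries without overlap (log2 fold change -0.32, unadjusted p = 0.0117). Leaving out libraries moved these small counts as well. For thyroid hormone receptor targets 2 were lower without Nnmt KO library b or control library d and with scaling by library size only. In the ROR and REV-ERB list none was lower without any single Nnmt KO library, without control library c or d, with scaling by library size only or without the filter on low counts, and 1 was higher without Nnmt KO library a. Cs did not pass without control library a or with scaling by library size only, and 1 retinoic acid receptor target was higher without control library d. For the thyroid, the ROR and REV-ERB and the ERRA lists the medians were -0.19, 0.07 and 0.06. Over the alternatives the thyroid median ran from -0.26 to -0.11 (highest without control library a) and that of the ROR and REV-ERB list from -0.15 to 0.30, lowest without Nnmt KO library b and highest without Nnmt KO library a. The ERRA median ran from -0.05 to 0.16, lowest without control library d and highest without Nnmt KO library a, so that the ROR and REV-ERB and the ERRA medians had no fixed sign.

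**Figure D4:**
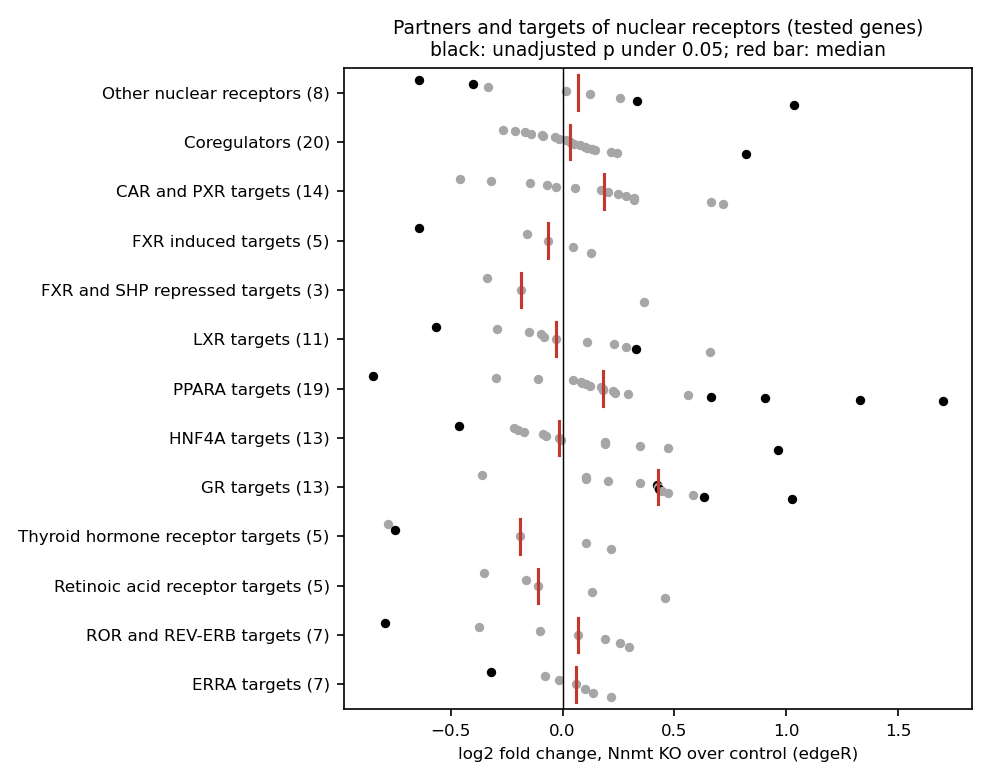
Log2 fold change (x axis) of each tested gene in the lists of other nuclear receptors, coregulators and receptor targets (y axis, with the number of genes tested), for Nnmt KO over control livers in edgeR's fit. Black points had an unadjusted p under 0.05 and the red bar is the median of the list, which was 0.43 for the glucocorticoid receptor targets and 0.18 for the PPARA targets with all libraries.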

How the data were processed

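Liver RNA of 8 male mice was sequenced, 4 per genotype. Per the labels the reads were processed with HISAT2 and StringTie on mm10, versions not given, and the table deposited by the authors holds a raw count for each gene, in whole numbers. Identifier and symbol joined by a bar are the form in which a StringTie helper writes counts derived from coverage, though this step is not given in the sources used here. The methods name a KAPA HyperPrep kit and the labels an NEBNext Ultra kit, and the strand setting was not given in the sources used here. Column headers carry the genotype and no mouse number, so libraries were lettered by column order.

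Of 33212 genes, 15291 entered the fit. They were kept by filterByExpr (minimum count 10), scaled by TMM and tested with edgeR 4.0.16 in R 4.3.3, with Benjamini-Hochberg adjustment over these genes. The standard error is the one implied by the F statistic. The p-values of edgeR set the difference between genotypes against the spread between these samples, which is estimated with information from all genes tested. No library was a copy of another, since chi-square over its degrees of freedom was 42.1 to 360 over all 28 pairs. For Nnmt KO library a it was 203, 219 and 267 with Nnmt KO libraries b to d. With control libraries a to d it was 271, 360, 170 and 181, so that control libraries c and d were the nearest to it. Alternatives were DESeq2 1.42.0, its size factors in edgeR, library size only, no filter on low counts, and each library left out in turn. The scripts were tested on simulated data with planted changes larger than that of any member. That test does not show how many smaller changes the fits would find. Positions and exon lengths came from GENCODE M21. Adgre1 was matched by its identifier, as Emr1.

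The members and lists were chosen with earlier results of these data known. Given for every library were Nnmt, members with an unadjusted p under 0.05 or without overlap, and Hnf4a, Ppara, Nr1h4, Nr1h3, Nr1i2, Nr1i3, Rxra, Nr5a2 and Nr3c1. From each other list up to 3 genes of smallest p were named. Further genes, among them those picked out in the marker lists and Cyp4a10, Fgf21, Nr4a1 and Nr1d1, were named after their values were seen. The study's other diets and assays were not analysed here.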

Additional observations from a re-analysis of the deposited data

Results flagged for a closer look

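In 6 of 74 groups of 4 libraries, the highest or lowest library stood far from the other 3 for its genotype. Independent groups of normally distributed values would give about 1 in 20, or 3.7 here. The groups came from the same 8 libraries and the CPM were not log-transformed, so 3.7 is only a rough guide. For Nr2f1, Nnmt KO library d stood at 0.949 CPM and the others of its genotype at 0.570 to 0.613 CPM. Nr3c2 was at 5.95 CPM in Nnmt KO library a, against 3.79 to 4.002 CPM in the others. For Nr4a1, Nnmt KO library c stood at 20.8 CPM and the others at 7.78 to 9.90 CPM. Among control libraries, Rxrg was low in library b, at 3.55 CPM against 4.80 to 5.05 CPM, and Esr1 was high in library d, at 12.7 CPM against 9.11 to 9.47 CPM. In scaling, library a of the Nnmt KO mice had a TMM factor of 1.21, against 0.952 to 0.977 for libraries b to d. This is the library with the lowest hepatocyte marker sum and the highest sums of stellate cell, cholangiocyte, lymphocyte and neutrophil markers. In the sum of macrophage markers only control library d was higher. The part of these differences in the levels of the receptor genes was not tested.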

How the results depend on the processing

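No paired analysis was possible because the columns carry no mouse number. Under the 12 alternatives, the count of members at an adjusted p under 0.05 was 0 in edgeR and 1 (Nr2f6) in DESeq2's Wald test. Nnmt passed the adjusted p in DESeq2 (log2 fold change -1.28, adjusted p = 0.00458), and without single libraries its log2 fold change was between -1.52 and -0.94 and its adjusted p over 0.05 in edgeR, with a range over all alternatives of 0.00458 to 0.296. With single libraries left out, members at an unadjusted p under 0.05 numbered 2 to 6, those higher in Nnmt KO livers 0 to 3, those lower 2 to 5, and those without overlap 2 to 8. In the same fits 8.08% to 14.1% of all genes had an unadjusted p under 0.05 and 9.45% to 14.3% did not overlap. The median log2 fold change of the members was 0.0765 with scaling by library size only and -0.00275 to 0.0650 without single libraries. That of all genes tested was 0.0723 with library size only, 0.0354 without the filter on low counts, and -0.00223 to 0.0289 without single libraries. Rxra changed sign without Nnmt KO library a (0.01) and without control library b (0.0673), in a range of -0.15 to 0.0673, and Ppara without Nnmt KO library b (-0.00904), in a range of -0.00904 to 0.25. The cause was not tested. Beside Rxra and Ppara, 13 other members were followed, those with an unadjusted p under 0.05 and Hnf4a, Nr1h4, Nr1h3, Nr1i2, Nr1i3, Nr5a2 and Nr3c1, and these kept the sign of their log2 fold change in all 12 alternatives. Nr2f2, Pparg and Thrb changed sign with other scalings. The log2 fold change of Nr2f6 ran from -0.53 to -0.36 and that of Nr3c2 from -0.96 to -0.62. Pdk4 and the lists were put to the same alternatives after the data were seen. The log2 fold change of Pdk4 ran from 1.11 to 1.51 and the adjusted p from 1.15e-05 to 0.216. The median of the PPARA targets lay between 0.06 and 0.27 and that of the glucocorticoid receptor targets between 0.29 and 0.69. The 4 members under 1 CPM had standard errors of 0.36 (Nr2f1) to 1.10 (Hnf4g), and the median standard error of a member's log2 fold change was 0.17. The part of depth in this was not tested.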
